A study of Mus musculus with 3 samples.

Results

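The gliogenic switch transcription factors described here are 7 genes: the nuclear factor I genes Nfia, Nfib, Nfic and Nfix, the SoxE genes Sox8 and Sox9, and the zinc-finger gene Zbtb20. They were chosen by name from a gene table of 51826 genes, and their 60 transcripts were taken by gene identifier from a table of 128622 transcripts. All 7 reached the minimum of 20 counts in at least 1 library that 18074 genes reached. RNA sequencing was made from the spinal cord of C57BL/6 mouse embryos at embryonic day 13.5, with 1 library for each of 3 genotypes. In dE3, Nestin-Cre removes the floxed exon 3 of Ctnnb1, the gene for β-catenin, which the submitters label a gain of function. In cKO, Nestin-Cre acts on a Ctnnb1 allele floxed over exons 2 to 6, labelled a loss of function. WT is labelled wild type, and the labels do not say whether it carried Cre or a floxed allele. Nestin-Cre recombines mainly in neural progenitors and their progeny, so cells of other origin in the dissected cord are not its main target. The number of embryos behind each library is not stated.

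With 1 library per genotype there is no replicate check and no test of a genotype effect. Ratios are of counts scaled for library composition, their 95% intervals are exact and cover counting error only, and a gene was called higher or lower where the ratio was at least 2-fold with an interval that excluded 1. Intervals alone separate little here, since 58.1% of measured genes had one that excluded 1 in the comparison of dE3 with WT, 53.9% in that of cKO with WT and 64.1% between the mutants. Both mutant libraries are set against the same WT library.

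During development, neural progenitors of the spinal cord first make neurons and later glia, a change called the gliogenic switch. Sox9 is needed for that switch in the mouse cord and acts upstream of Nfia, and Nfia and Nfib drive the first astrocyte genes. Sox8 is closely related to Sox9 and partly shares its role in oligodendrocyte specification. Nuclear factor I proteins bind DNA as dimers at a palindromic site. Zbtb20 is a repressor that promotes astrocyte production in the mouse cortex. β-catenin enters the nucleus after Wnt signalling and activates genes together with TCF/LEF factors.

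The libraries held 34790053 counts in dE3, 33048837 in cKO and 32167470 in WT. Ctnnb1 had 456.5 counts per 1000000 scaled counts (CPM) in dE3, 426 CPM in cKO and 544 CPM in WT, and a count over the whole gene does not show which exons were removed. All 8 genes of a list of Wnt target readouts were called higher in dE3 against WT, with a median log2 ratio of 3.95. In cKO against WT 1 of 8 was called higher and none lower, with a median of 0.44. Of all measured genes 6.33% were called higher in dE3 against WT. In cKO against WT 3.62% were called higher and 3.33% lower. The library names carry the tag L2 for dE3 and WT and L3 for cKO, so what the tag stands for and the cKO genotype cannot be told apart. Neuronal and radial glia markers were present in all 3 libraries, and so were markers of tissues outside the cord. Those of cartilage, muscle, mesenchyme and Schwann cells stand beside the results below, and 11 dorsal root ganglion markers summed to 890 CPM in dE3, 1414 CPM in cKO and 1162 CPM in WT.

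Per unit length, Nfib was the most abundant of the 7 factors in every library, followed by Nfix, Nfic and Sox9 in that order. In the deposited length-corrected unit TPM, which sums to 1000000 in each library, Nfib stood at 150.1 in dE3, 69.2 in cKO and 98.9 in WT. Nfix stood at 109 TPM in dE3, 62.6 in cKO and 69.4 in WT. Nfic stood at 43.2 TPM in dE3, 45.3 in cKO and 35.1 in WT. The lower end of the order differed among the libraries. Zbtb20 stood between Nfia and Sox8 in dE3 with 19.8 TPM, was last in cKO with 12.4 TPM and stood above Nfia in WT with 23.5 TPM. Sox8 was last in dE3 with 2.88 TPM, stood above Zbtb20 in cKO with 15.5 TPM and was last in WT with 17.3 TPM. Nfia stood at 30.7 TPM in dE3, 20.7 in cKO and 22.5 in WT. With no replicates, the spread that would show which neighbours in this order differ is unknown.

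**Figure D1:**
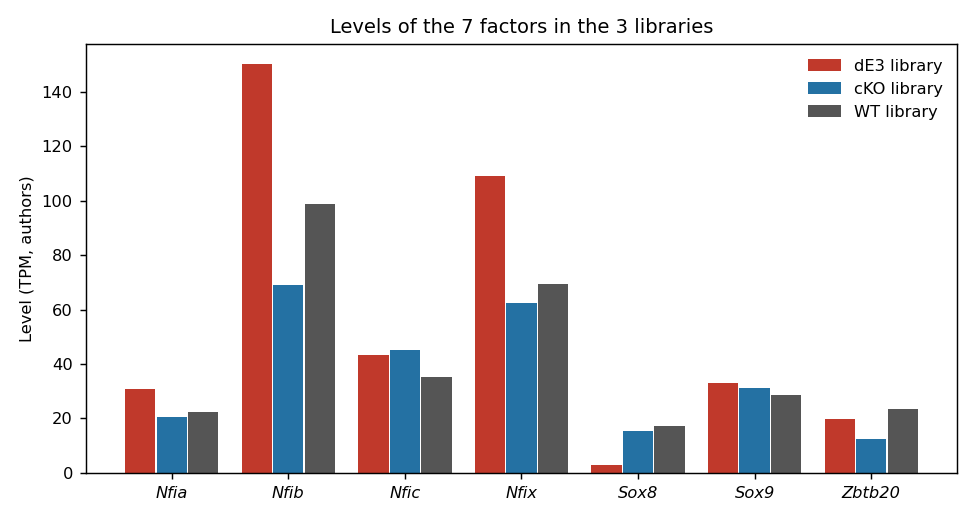
Level of each of the 7 factors in TPM as deposited by the authors, on a linear axis, with 1 bar per library for dE3, cKO and WT. Sox8 in dE3, at 2.88 TPM, is the lowest bar, and Nfib in dE3, at 150.1 TPM, is the highest.

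Among the 7 factors, Sox8 was called lower in dE3 against WT and no factor was called higher, against 3.82% of all measured genes called lower and 6.33% called higher. In cKO against WT, Zbtb20 was called lower and none higher, where 3.33% of measured genes were lower and 3.62% higher. In dE3 against cKO, Nfib was called higher and Sox8 lower, where 6.26% of measured genes were higher and 4.65% lower. The same shares are the background for the counts of called genes in the lists below. The median log2 ratio of the 7 was 0.31 in dE3 against WT, -0.12 in cKO against WT and 0.62 between dE3 and cKO, and the median of all measured genes was -0.01, 0.02 and -0.01 in the same comparisons. These are bulk libraries, in which fewer cells of a type and less RNA per cell cannot be told apart.

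**Figure D2:**
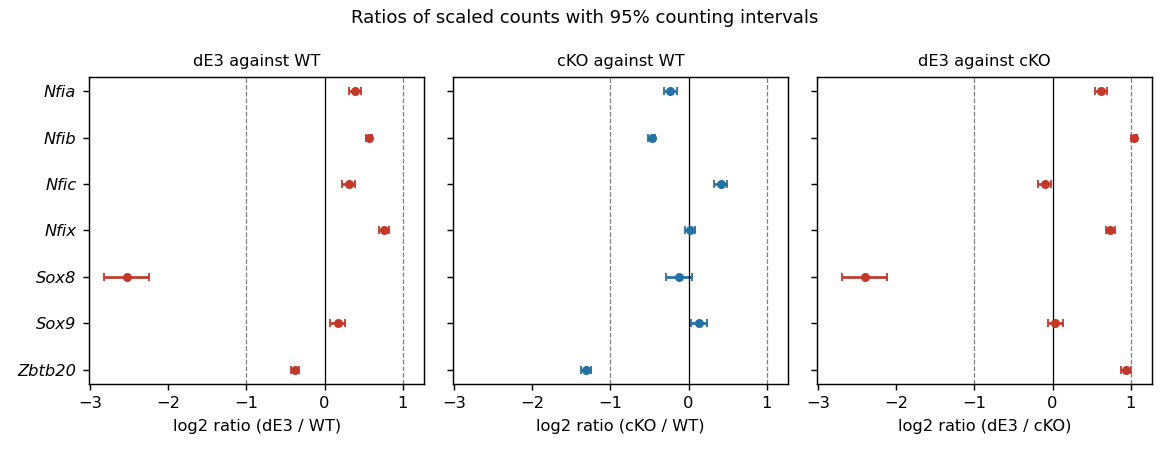
Log2 ratio of scaled counts for each of the 7 factors, comparing dE3 with WT, cKO with WT and dE3 with cKO, with 95% intervals that cover counting error only. Sox8 lies past the 2-fold lines in both comparisons that include dE3, Zbtb20 in cKO against WT, and Nfib just past the line in dE3 against cKO.

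**Figure D3:**
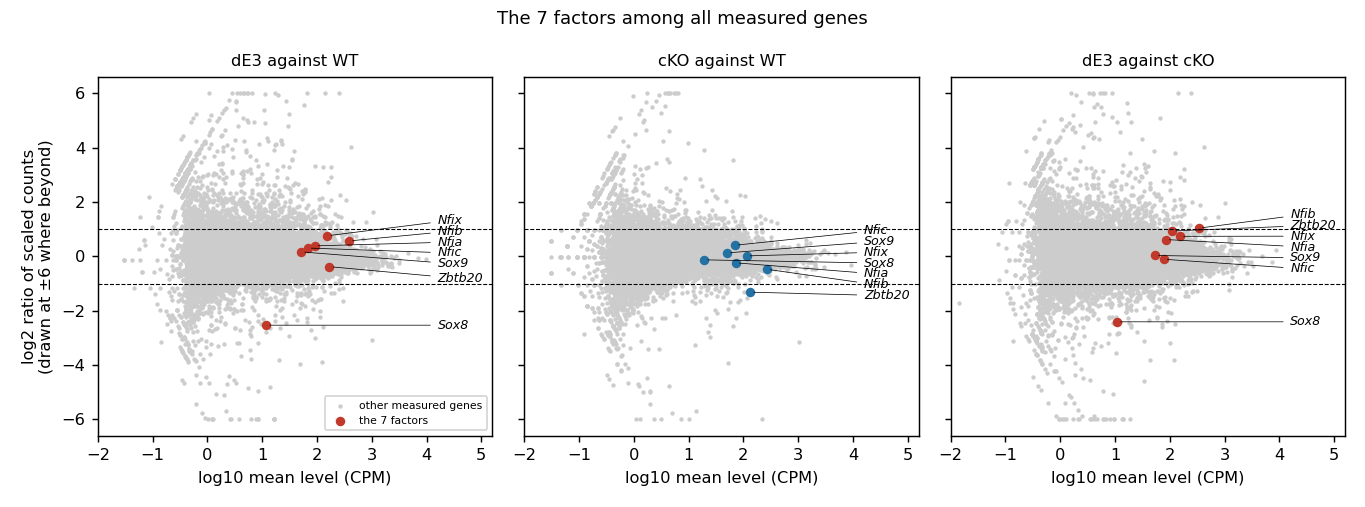
Log2 ratio of scaled counts against the log10 mean level in CPM for all measured genes, in grey, with the 7 factors coloured and named, in one panel per comparison. Sox8 lies among the low ratios in both panels with dE3, and most of the other factors lie between the 2-fold lines.

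The SoxE pair differed most in dE3. Sox8 (ENSMUSG00000024176), on the minus strand at chr17:25565892-25570686 of GRCm38, had 123 counts in dE3, 602 in cKO and 641 in WT. Scaled, that is 3.47 CPM in dE3, 18.4 CPM in cKO and 20.1 CPM in WT. The dE3 library stood far below the other two, which lay close to each other. Sox8 fell 5.77-fold in dE3 against WT (interval 4.75 to 7.06), a ratio lower than that of all but 125 of the 18074 measured genes. Sox8 was also 5.30-fold lower in dE3 than in cKO. In cKO against WT the ratio was 0.918, with an interval of 0.820 to 1.03 that includes 1. Almost all of its counts lay on the transcript Sox8-201, with 122 counts in dE3, 592 in cKO and 624 in WT. The antisense gene 2810468N07Rik, which covers 10.6% of the exon bases of Sox8, had 37 counts in dE3, 78 in cKO and 52 in WT, and without strand information reads from their overlap cannot be told apart.

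The start of Sox8-201 coincides with that of the RefSeq promoter entry (GRCm38.p6), which is printed here because Sox8 had the lowest dE3 ratio of the 7. The window is chr17:25570637-25570936 on the minus strand, from 250 bases before to 50 bases after the start. Capitals mark the only match to a searched motif, TGCCAA, which is TTGGCA, one arm of the nuclear factor I palindrome, read on the opposite strand and lies 70 bases before the start.
Sox8 promoter: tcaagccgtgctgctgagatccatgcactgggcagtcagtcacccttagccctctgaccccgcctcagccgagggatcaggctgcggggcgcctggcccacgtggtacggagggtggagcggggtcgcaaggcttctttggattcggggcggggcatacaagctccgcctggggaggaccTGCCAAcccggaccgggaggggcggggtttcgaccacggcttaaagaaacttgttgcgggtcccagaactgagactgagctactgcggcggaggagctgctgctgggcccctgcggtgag

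On both strands, the searched motifs were CTTTGAT and CTTTGTT for TCF/LEF factors, the full palindrome and its arm TTGGCA for nuclear factor I, and ACAATGG for SOX factors. TTGGCA occurred in 14.1% of the 32851 promoters of the same length. CTTTGAT occurred in 3.73% of them, including that of Nfia, which lies 195876 bases upstream of the start of the leading Nfia transcript of WT. CTTTGTT, in 5.85% of promoters, and ACAATGG, in 3.66%, each occurred in 1 of the Nfix promoters. The full palindrome occurred in 0.0365% of promoters and in none of the 8 promoters found for 5 of the 7 factors. A match describes these letters and is not evidence of binding.

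Sox9 (ENSMUSG00000000567, chr11:112782224-112787760) had 1920 counts in dE3, 1730 in cKO and 1542 in WT, or 54.2 CPM in dE3, 52.9 CPM in cKO and 48.3 CPM in WT. The 3 libraries lay within a narrow range, with ratios of 1.12 for dE3 against WT (interval 1.05 to 1.20) and 1.10 for cKO against WT (1.02 to 1.17). When libraries were instead scaled to radial glia markers, the log2 ratio of dE3 against WT was -0.04. Summed over the pair, Sox8 made up 8.03% of the SoxE TPM in dE3, 33.2% in cKO and 37.7% in WT.

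Sox9 is also the master regulator of cartilage, and cartilage markers moved with the mutant genotypes. All 12 measured cartilage markers rose in dE3 against WT, with a median log2 ratio of 3.60, and 8 of 12 rose in cKO against WT, with a median of 2.15. Their summed level was 1182 CPM in dE3, 562 CPM in cKO and 233 CPM in WT, and none was at 0. Col2a1, the main collagen of cartilage, had 427.5 CPM in dE3, 236 CPM in cKO and 88.7 CPM in WT. The part of such cells in the Sox9 level was not tested.

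Among the nuclear factor I genes, Nfib, Nfix and Nfia had their highest level in dE3, while Nfic was close in the 2 mutant libraries and lowest in WT. Summed over the family, the level was 333 TPM in dE3, 198 TPM in cKO and 226 TPM in WT. Nfib made up 45.0% of it in dE3, 35.0% in cKO and 43.8% in WT.

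Nfib (ENSMUSG00000008575, chr4:82290173-82705750, minus strand), which acts with Nfia in the first astrocytes and is also needed for lung and forebrain development, had 16299 counts in dE3, 7305 in cKO and 9897 in WT. Scaled, its level was 460.5 CPM in dE3, 223 CPM in cKO and 309.7 CPM in WT. WT lay between the mutants. The ratio was 1.49 for dE3 against WT (interval 1.45 to 1.52) and 0.721 for cKO against WT (0.700 to 0.743), neither past 2-fold. Between the mutants Nfib was 2.06-fold higher in dE3 (interval 2.01 to 2.12), just past the 2-fold line, and 1103 measured genes had a higher ratio there. That call was lost when the libraries were scaled to radial glia markers, with a log2 ratio of 0.77.

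Nfix (ENSMUSG00000001911, chr8:84699876-84800344, minus strand), which regulates neural stem cells and, in muscle, the fetal gene program, had 193 CPM in dE3, 116 CPM in cKO and 114 CPM in WT. The dE3 library stood above the other two, and its ratio of 1.70 against WT (interval 1.63 to 1.77) did not reach 2-fold. For cKO against WT the ratio was 1.01, with an interval of 0.969 to 1.06 that includes 1. All 13 measured skeletal muscle markers rose in dE3 against WT, with a median log2 ratio of 3.94, and 11 of 13 rose in cKO against WT, with a median of 1.64. Their sum was 693 CPM in dE3, 56.3 CPM in cKO and 17.7 CPM in WT, where Tnni1 and Tnnc2 were at 0 in WT. Mybpc1, a myosin-binding protein of slow muscle, made up 494 CPM of the dE3 sum. Their part in the Nfix level was not tested.

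Nfia (ENSMUSG00000028565, chr4:97772734-98118874) had 3630 counts in dE3, 2177 in cKO and 2502 in WT, which gave 103 CPM in dE3, 66.6 CPM in cKO and 78.3 CPM in WT. Its ratio was 1.31 for dE3 against WT (interval 1.24 to 1.38) and 0.850 for cKO against WT (0.802 to 0.901). Nfic (ENSMUSG00000055053, chr10:81396186-81455635, minus strand), known for its role in tooth root formation, had 74.8 CPM in dE3, 80.2 CPM in cKO and 60.3 CPM in WT. Its ratio was 1.24 for dE3 against WT (1.17 to 1.32) and 1.33 for cKO against WT (1.25 to 1.41). None of these 4 values passed 2-fold. Mesenchyme markers, some of which mark tissues that also express nuclear factor I genes, summed to 1263 CPM in dE3, 1540.0 CPM in cKO and 675 CPM in WT, with 4 of 12 called higher in each mutant against WT and none at 0. Their part in these levels was not tested.

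The level of Nfia over the whole gene hid a difference in which of its transcripts held the counts. Nfia-201 held 196 counts in dE3, 0 in cKO and 1952 in WT, that is 5.40% of the gene's counts in dE3, 0 in cKO and 78.0% in WT. Nfia-203 held 46.4% in dE3, 49.9% in cKO and 8.95% in WT. Both mutant libraries stood apart from WT on both transcripts. Nfia-205 held 26.4% in dE3, 31.2% in cKO and 12.0% in WT. Nfia-204 held 743 counts in dE3, 357 in cKO and 0 in WT. Against a floor of 3 counts per library, Nfia-201 was at least 666-fold lower in cKO than in WT, and Nfia-204 was at least 224-fold higher in dE3 against WT and at least 116-fold higher in cKO against WT. The counting intervals of these 3 ratios to the floor begin at 541, 181 and 94.1 in the same order. Intervals of transcript ratios treat the estimated counts as observed and do not cover error in the split among transcripts. Nfia-201 was 11.0-fold lower in dE3 than in WT (interval 9.52 to 12.8).

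The shift in transcript shares is the part of a gene's counts that must change transcript for the shares in a pair of libraries to match. For dE3 against WT the Nfia shift was 72.6%, above 99.0% of the 5627 genes with at least 1000 counts in every library. The median shift of those genes was 3.33%. For cKO against WT the Nfia shift was 78.1%, above 99.3% of those genes. Between dE3 and cKO it was 9.63%. The leading transcript differed between dE3 and WT in 10.2% of these genes and between cKO and WT in 10.8%. The 4 Nfia transcripts have 8692 bases in common, which is 92.6% to 97.5% of their lengths. The split between them therefore rests on reads over the small remainder, is the authors' estimate and was not checked on reads that span exon junctions.

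**Figure D4:**
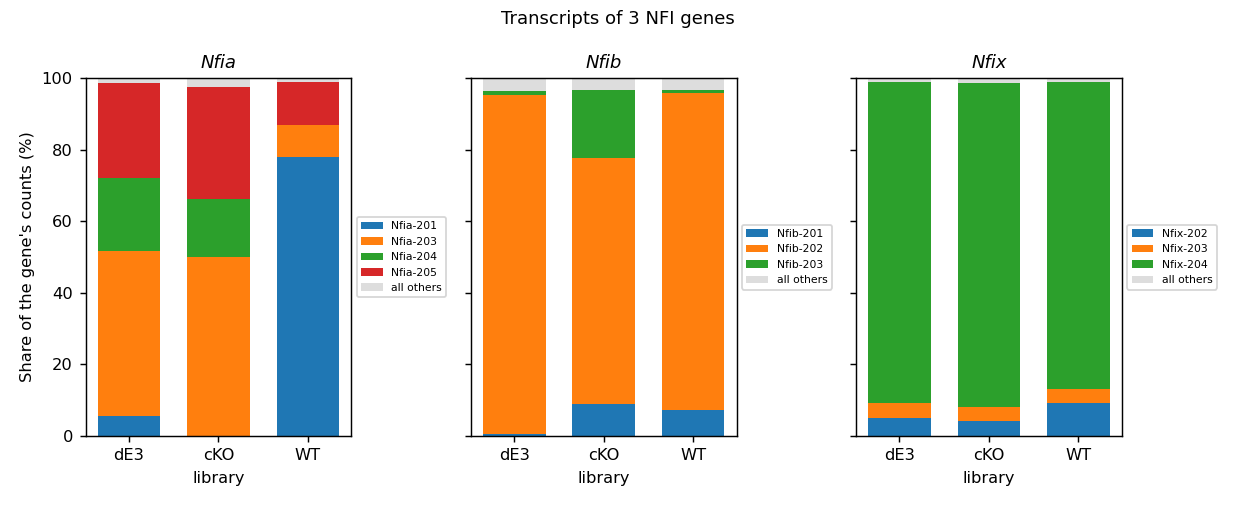
Share of each gene's counts, in percent, that the authors' estimates gave to each transcript, as stacked bars for the dE3, cKO and WT libraries, with a panel each for Nfia, Nfib and Nfix. Nfia-201 holds 5.40% in dE3, none in cKO and 78.0% in WT, while Nfib-202 and Nfix-204 lead in all 3 libraries.

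In terms of exons, counts on Nfia transcripts with a 66-base exon (chr4:97956374-97956439 of GRCm38, plus strand, exon positions from GENCODE vM21) made up 73.8% in dE3, 83.2% in cKO and 21.2% in WT. Counts on transcripts with a 129-base exon (chr4:98041551-98041679) made up 53.0% in dE3, 48.8% in cKO and 91.0% in WT. Both lengths are multiples of 3. Exon shares here are of counts on protein-coding Nfia transcripts that held at least 50 counts in any library. A run of 3 exons absent from Nfia-204 stood at 79.3% in dE3, 83.2% in cKO and 100% in WT, and a 92-base exon absent from Nfia-205 at 73.2% in dE3, 68.0% in cKO and 87.8% in WT. The 66-base and 129-base exons had the widest differences from WT in both mutants, and their sequences are shown as they stand in Nfia-205 and Nfia-201, with the exon in capitals and 10 bases of the neighbouring exons on each side in lower case.
Nfia 66-base exon: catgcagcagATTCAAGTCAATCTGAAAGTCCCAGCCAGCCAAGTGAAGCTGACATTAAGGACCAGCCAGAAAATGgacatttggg
Nfia 129-base exon: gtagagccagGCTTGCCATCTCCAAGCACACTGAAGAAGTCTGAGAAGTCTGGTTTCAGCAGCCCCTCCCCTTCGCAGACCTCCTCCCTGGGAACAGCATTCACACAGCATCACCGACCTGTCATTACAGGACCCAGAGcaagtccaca

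For Nfib the leading transcript was Nfib-202 in every library, with 94.9% of the gene's counts in dE3, 68.8% in cKO and 88.8% in WT. Nfib-203 held 171 counts in dE3, 1401 in cKO and 77 in WT and was 17.8-fold higher in cKO than in WT (interval 14.1 to 22.7). Nfib-201 held 103 counts in dE3, 647 in cKO and 714 in WT and was 7.68-fold lower in dE3 than in WT. On Nfib-203 the cKO library stood apart, and on Nfib-201 the dE3 library did. The split among Nfib transcripts is likewise the authors' estimate and was not checked on reads that span exon junctions. Counts on transcripts with an 83-base exon (chr4:82320474-82320556, minus strand) made up 2.66% in dE3, 29.3% in cKO and 8.62% in WT. This share and the exon shares that follow are of counts on protein-coding Nfib transcripts that held at least 50 counts in any library. In Nfib-201 the exon before it is 27 bases longer than in Nfib-203, and counts on transcripts with the longer form made up 0.642% in dE3, 9.01% in cKO and 7.32% in WT. Counts on the shorter form made up 2.02% in dE3, 20.2% in cKO and 1.30% in WT. The 27 bases (chr4:82323545-82323571, minus strand) and the 83-base exon are printed in capitals, since they tell the Nfib transcripts apart.
Nfib 27-base extension: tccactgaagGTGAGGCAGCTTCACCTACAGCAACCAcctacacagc
Nfib 83-base exon: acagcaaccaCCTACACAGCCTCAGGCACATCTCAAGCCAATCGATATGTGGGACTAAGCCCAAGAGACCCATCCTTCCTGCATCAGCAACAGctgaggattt

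Nfic and Nfix kept 1 leading transcript across the libraries. Nfic-203 held 81.0% of Nfic counts in dE3, 80.3% in cKO and 78.8% in WT. Nfix-204 held 89.9% of Nfix counts in dE3, 90.8% in cKO and 85.9% in WT. Nfix-202, a shorter transcript, held 4.87% in dE3, 4.18% in cKO and 9.26% in WT. Shares of counts give more weight to long transcripts. By TPM, Nfix-202 held 12.6% of Nfix in dE3, 10.9% in cKO and 21.6% in WT. Nfic-203 held 56.6% of Nfic TPM in dE3, 55.6% in cKO and 53.1% in WT. The shift in transcript shares of Nfix between libraries was 4.98% for dE3 against WT and 5.46% for cKO against WT.

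Zbtb20 (ENSMUSG00000022708, chr16:42875881-43642602) had 5192 counts in dE3, 2502 in cKO and 6080 in WT. Its scaled level was 147 CPM in dE3, 76.5 CPM in cKO and 190.3 CPM in WT, so that cKO stood lowest. It fell 2.49-fold in cKO against WT (interval 2.37 to 2.61), and 381 measured genes had a lower ratio. For dE3 against WT the ratio was 0.771 (0.743 to 0.800), and for dE3 against cKO it was 1.92 (1.83 to 2.01), under 2-fold.

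The transcript Zbtb20-204, 26901 bases long, held 98.2% of the gene's counts in dE3, 96.9% in cKO and 98.9% in WT. Its level was 13.5 TPM in dE3, 6.72 TPM in cKO and 17.1 TPM in WT. Over the whole gene the deposited TPM differed less, and with a pseudocount of 0.1 their log2 ratio for cKO against WT was -0.91, which does not reach 2-fold. The 39 measured genes whose leading transcript was at least 16000 bases long, Zbtb20 among them, had a median log2 ratio of -0.09 in cKO against WT, with 2 called lower and 2 called higher.

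Of 22 glial genes associated with nuclear factor I and Sox9, 21 were measured. In dE3 against WT 9 of the 21 fell and 1 rose, with a median log2 ratio of -0.54. Of all measured genes 3.82% were called lower and 6.33% higher there. The other 11 were not called, and they went in both directions. Gja1 was 1.99-fold higher in dE3 (interval 1.87 to 2.12), while Slc1a3 had a ratio of 0.686 (0.665 to 0.708). Hepacam, an adhesion molecule of astrocytes, had 3.53 CPM in dE3, 11.8 CPM in cKO and 17.2 CPM in WT, and fell 4.88-fold in dE3 against WT. Mmd2, a target of Sox9 and Nfia in the mouse cord, had 9.78 CPM in dE3, 38.1 CPM in cKO and 36.0 CPM in WT, and fell 3.68-fold in dE3 against WT. Fabp7, the fatty acid binding protein of radial glia, fell 3.08-fold and the water channel gene Aqp4 fell 3.75-fold in the same comparison. Apcdd1, known both as a target of Sox9 and Nfia and as a Wnt target, rose 4.18-fold, with 555 CPM in dE3, 149 CPM in cKO and 133 CPM in WT. In cKO against WT none fell and 3 rose, with a median of 0.17, where 3.33% of measured genes were lower and 3.62% higher. Those that rose were the connexin gene Gjb6, S100b and Ntsr2, the last on few counts. In dE3 against cKO 12 of the 21 were called lower in dE3 and 1 higher, and the median was -1.13. Of all measured genes 4.65% were lower and 6.26% higher there.

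**Figure D5:**
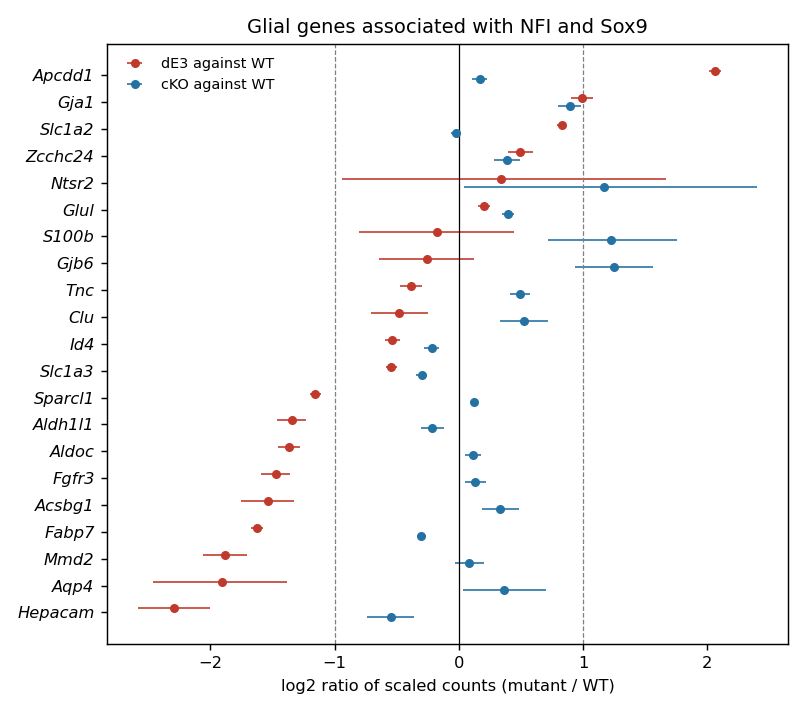
Log2 ratio of scaled counts for the glial genes associated with nuclear factor I and Sox9, in dE3 against WT and cKO against WT, with 95% counting intervals and the 2-fold lines drawn. In dE3, Hepacam, Aqp4 and Mmd2 are the lowest of the called genes and Apcdd1 is the highest.

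Of the oligodendrocyte lineage factors, among which Sox8 acts, Olig1 and Olig2 fell in dE3 against WT, and none of the 8 measured was called in cKO against WT. Olig1 had 2 counts in dE3, 1200 in cKO and 1064 in WT, and Olig2 had 0 counts in dE3, 452 in cKO and 532 in WT. The remaining SoxE gene, Sox10, had 16.8 CPM in dE3, 33.8 CPM in cKO and 18.8 CPM in WT. It was lower in dE3 than in cKO, and neither it nor any of the other 3 genes in the list of SoxE and SoxD factors was called in either mutant against WT. Sox10 also marks Schwann cells, whose 7 markers, Sox10 included, summed to 109 CPM in dE3, 141 CPM in cKO and 91.8 CPM in WT. None of the 7 was called in either mutant against WT, with a median log2 ratio of 0.14 in dE3 and 0.81 in cKO, and 2 of 7, Gfra3 and Sox10, were lower in dE3 than in cKO, with a median of -0.67. The part of such cells in the Sox10 level was not tested. Of 8 endothelial and 8 microglial markers, none was called in either mutant against WT.

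Of 5 SoxB genes, Sox1, Sox3 and Sox21 fell in dE3 against WT. Sox1, Sox2 and Sox3 hold cells in the progenitor state, while Sox21 counteracts them. Sox21 had 12.0 CPM in dE3, 37.4 CPM in cKO and 37.7 CPM in WT, and Sox1 had 6.81 CPM in dE3, 17.9 CPM in cKO and 20.2 CPM in WT. None of the 5 was called in cKO against WT. Sox2, which stands with Sox9 in most progenitors, had 124 CPM in dE3, 74.1 CPM in cKO and 94.2 CPM in WT. Over 11 radial glia markers the median log2 ratio was 0.21 in dE3 against WT, with Hes5 called higher and Fabp7 lower, and -0.16 in cKO against WT with none called. Over 15 pan-neuronal markers the medians were -0.37 and 0.08 in the same comparisons, with none called.

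Lists of signals that act beside these factors were counted in the same way. Of all measured genes, 6.33% were called higher and 3.82% lower in dE3 against WT. In cKO against WT 3.62% were called higher and 3.33% lower. Of 13 BMP pathway genes, Bmp4 was called higher in both mutants, with 4.49 CPM in dE3, 3.58 CPM in cKO and 1.66 CPM in WT. Of 10 Notch pathway genes, Hes5 was called higher in dE3 against WT and none in cKO against WT. Of 11 JAK-STAT and cytokine genes, Ctf1 was called higher in dE3 against WT, and Cntf and Clcf1, ligands of the astrocyte-inducing cytokine family, were called lower in cKO against WT. Clcf1 had 2.20 CPM in dE3, 0.612 CPM in cKO and 1.88 CPM in WT. Both calls rest on few counts. Cntf had 45 counts in dE3, 0 in cKO and 51 in WT, and Clcf1 had 78 in dE3, 20 in cKO and 60 in WT. Of 14 temporal factors of spinal neurons, a list that contains genes expressed in the same period as nuclear factor I, Tcf4 rose in dE3 against WT, with 206 CPM in dE3, 134 CPM in cKO and 89.8 CPM in WT, and none was called in cKO against WT. Of 10 early progenitor genes none was called in either mutant against WT.

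The genes whose pair of log2 ratios against WT lay nearest to that of each factor were sought among 10802 genes with at least 200 counts in every library. For Sox8, which itself has fewer counts than that in dE3, the nearest were Ttbk2, Ggnbp1 and Fam102b, and 2 genes lay within 0.25. The nearest to Zbtb20 were Hoxd4 and Zfand2a, and 4 genes lay within 0.25. For Nfib they were Rfx3, Sirt4 and Smad5, with 56 genes within that distance, and for Nfix they were Mpdz, Vim and Ect2, with 214. For Nfia, whose nearest were Pign, Rtel1 and Grk3, 532 genes lay that close, and for Nfic, with Litaf, Adamts5 and Ext2, 670 did. Sox9, with Commd2, Pdp2 and Ddb1 as nearest, shared its pattern with 3100 genes. The likeness rests on 2 ratios from 3 libraries that share WT.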

How the data were processed

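The build GRCm38.p6 and the tools Bowtie2 2.3.2 and CASAVA are listed, with no step given for either tool, per the submitters' processing notes. An mRNA library kit was used on 1 ug of total RNA, per the labels. The quantifier and the strand setting are not stated in the labels. The authors deposited estimated counts (whole numbers), TPM and FPKM per gene and per transcript. FPKM as deposited were not used. Each gene's deposited count equals the sum over its transcripts.

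Counts were scaled with TMM factors from edgeR 4.0.16 (R 4.3.3) over the whole table and expressed as CPM. Ratios carry exact conditional binomial 95% intervals (scipy 1.17.1). The procedure was tested on simulated data with counting error only, which cannot show how it fares with spread between embryos. Transcript and exon positions came from GENCODE vM21, promoters from RefSeq. Alternatives used DESeq2 1.42.0 size factors, upper quartile and total scaling, radial glia markers, TPM, other minimum counts and folds, and removal of a transcript. Overlapping and antisense genes are uncertain.

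The named genes were all 7 factors, up to 4 called genes with the largest ratios in each of 19 lists, defining markers and the 3 nearest patterns. Gja1 and Slc1a3 of the glial list, which were not called, were added to show both directions. The factors and lists were chosen with earlier results of these data known. A few genes that this rule names are not reported here.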

Additional observations from a re-analysis of the deposited data

How the results depend on the processing

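With the counts of each factor's most different transcript left out, 1 factor (Nfia) was called higher and 0 lower in dE3 against WT, 2 (Nfia and Nfib) higher and 0 lower in cKO against WT, and 0 higher and 1 lower in dE3 against cKO, where the lower factor was Nfib and Sox8 was no longer called. The log2 ratio then turned to 0.23 for Zbtb20 in cKO against WT and to -1.56 for Nfib in dE3 against cKO, as most counts of each are on the transcript removed. At 1.5-fold, 1 factor (Nfix) was higher in dE3 against WT and 4 (Nfia, Nfib, Nfix and Zbtb20) in dE3 against cKO. By TPM with a pseudocount of 0.1 or 1, 0 factors were lower in cKO against WT. Scaled to radial glia markers, 0 were higher in dE3 against cKO. That scaling moved all log2 ratios by -0.21 in dE3 against WT, 0.16 in cKO against WT and -0.28 in dE3 against cKO. The Nfix log2 ratio in cKO against WT was 0.02 and became -0.15 by TPM. Of 165 values of single factors under an alternative, 112 stayed within their interval, and 13 changed sign, of which 2 were called values, those of Zbtb20 and Nfib above. Scaling by TMM over measured genes only was added after seeing the data and changed no call. No paired analysis was possible because each genotype has 1 library, and leaving out a replicate could not be run for the same reason. Depth limits Sox8 in dE3, which rests on 123 counts.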
